A study of Mus musculus with 8 samples.

Results

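The genes of glucose use form a set of 38 symbols that covers glucose uptake, glycolysis, glycogen turnover, pyruvate import and the pyruvate dehydrogenase complex with its regulators. Members were taken by symbol from a list of the pathway, not by a threshold on measured values, and all 38 were found among the 33105 genes of the deposited table. The list was chosen with earlier results of these data known. Aldoa, the aldolase of striated muscle, has 2 Ensembl identifiers there. The second held 58 counts over all libraries and was too low to test, so that 39 entries gave 38 tested genes.

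Messenger RNA was sequenced from hearts of C57BL/6J mice, in 4 libraries labelled MR, for mitral regurgitation produced by a minimally invasive operation, and in 4 libraries labelled Sham. The stated purpose was to find pathways and genes tied to the volume overload hypertrophy that follows a leaking mitral valve. No genotype, transgene or drug is given for either group, and the sources used here do not name the part of the heart, the time after the operation, the age or the sex. Whether each library is a separate animal is not stated, and p-values therefore reflect library-to-library spread, part of which could be technical.

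In heart muscle, glucose enters through the insulin-regulated carrier Slc2a4 and the basal carrier Slc2a1, is trapped by hexokinases and is either stored as glycogen or split to pyruvate. Phosphofructokinase sets the pace of glycolysis and is driven by fructose 2,6-bisphosphate, which the Pfkfb enzymes make and remove. Pyruvate crosses the inner mitochondrial membrane through the Mpc1 and Mpc2 carrier and is oxidised by the pyruvate dehydrogenase complex, which Pdk kinases switch off and Pdp phosphatases switch on. The normal adult heart draws most of its energy from fatty acids, and many of these enzymes exist as isoforms of which 1 predominates in striated muscle.

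None of the 38 tested members passed the test between MR and Sham hearts, with 0 higher and 0 lower at an adjusted p under 0.05 in the edgeR quasi-likelihood test over all 16603 genes tested, against a background of 0.458% of all genes called, 0.241% higher and 0.217% lower. At an unadjusted p under 0.05 there were 4 members (10.5%), Ugp2 in the upward and Pfkfb1, Eno1 and Pfkl in the downward direction. Of all genes 15.1% passed, 7.78% higher and 7.29% lower. Ugp2 and Pfkfb1 were also the only members called in some other settings, both with DESeq2 (3.77% of all genes called), both with no filter on low counts (3.06%), Ugp2 alone with limma-voom and quality weights (2.58%) and Ugp2 alone with a trend on gene length removed (1.37%). Leaving out single libraries moved the total of 76 changed genes to between 3, in the fit lacking Sham replicate 2, and 887, in the fit lacking Sham replicate 3, which called both members against 5.28% of all genes. Scaling by library totals gave 53 higher and 17 lower genes in place of 40 and 36.

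For most members the data bounded the difference closely. The 95% interval of the log2 fold change of MR over Sham lay within 1.5-fold either way for 35 of the 38 members, the 3 exceptions being Pfkfb1, Gapdh and Ugp2. The log2 fold change was negative for 28 members and positive for 10, where 49.6% of all genes were negative. The median over the members was −0.08, that over all genes 0.00. By role, the median was −0.14 for the 2 glucose carriers, −0.09 for the 2 hexokinases, −0.10 for the 8 upper glycolysis genes, −0.06 for the 7 lower glycolysis genes and −0.10 for the 2 lactate dehydrogenase genes. It was −0.08 for the 4 glycogen breakdown genes, −0.03 for the 4 glycogen synthesis genes, −0.07 for the 2 pyruvate carrier genes, 0.01 for the 4 pyruvate dehydrogenase complex genes and −0.09 for the 3 genes of its kinases and phosphatase. In whole tissue, fewer cells of a type and less RNA per cell cannot be told apart.

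**Figure D1:**
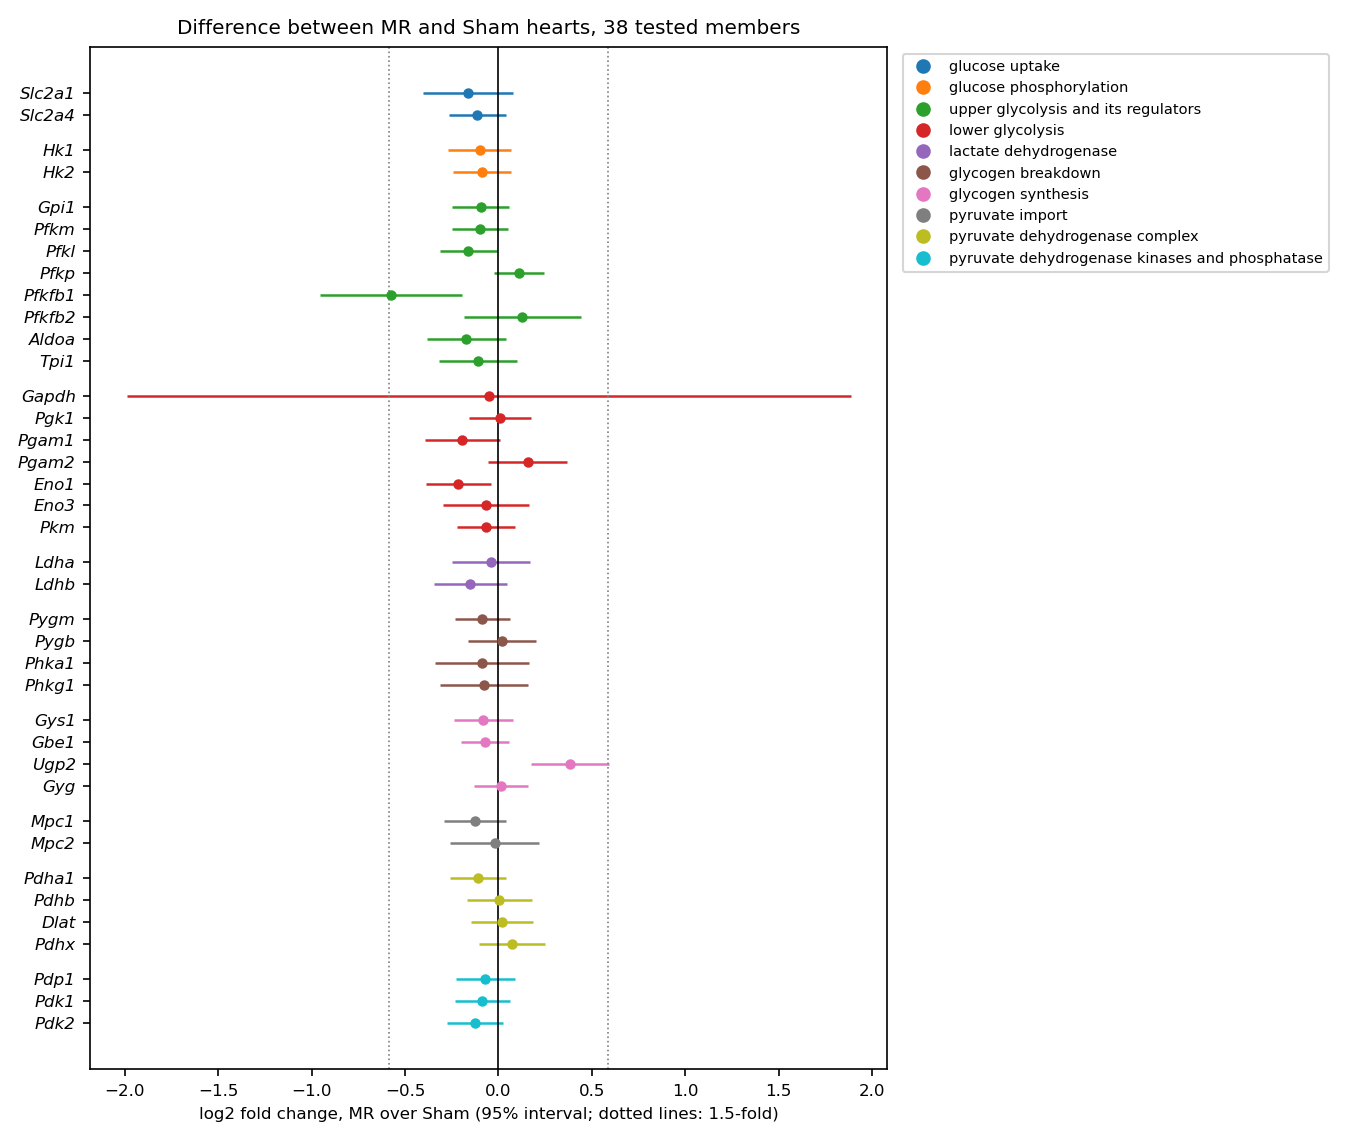
Log2 fold change of MR over Sham (x axis) for the 38 tested members (y axis, grouped and coloured by role), with points for the edgeR estimate, bars for its 95% interval and dotted lines at 1.5-fold. The interval of Ugp2, at 0.38, lies above zero. Those of Pfkfb1, at −0.57, Eno1, at −0.21, and Pfkl, at −0.16, lie below zero, and that of Gapdh runs from −1.99 to 1.89.

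Libraries differed among themselves in ways that touch these genes. Total counts ran from 42291511 to 58658094 per library, and values below are in CPM, counts scaled to a common library total with TMM factors. In Sham replicate 1 short genes were high, with a Spearman correlation of −0.35 across genes, which are not independent replicates, between exon length and the deviation from the mean of the 8 libraries, against −0.16 to 0.16 in the other libraries. Of the 38 members, 16 had their highest value in Sham replicate 1, 9 in Sham replicate 4, 6 in Sham replicate 2 and 1 in Sham replicate 3, while 6 had it in an MR library. The median deviation of the members on the log2 scale was 0.00, 0.01, −0.07 and −0.05 in the MR libraries and 0.08, 0.02, −0.06 and 0.05 in the Sham libraries, so that the groups overlapped. Without Sham replicate 1 the median log2 fold change of the members was −0.09, and with the length trend removed from every library it was also −0.09. Without Sham replicate 4 it was −0.06. Over all settings it ran from −0.11 without Sham replicate 3 to −0.04 with library totals, where the median of all genes was 0.05. The numbers in the library names form a separate block in each group, so that any difference in handling that follows them cannot be told apart from the operation.

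**Figure D2:**
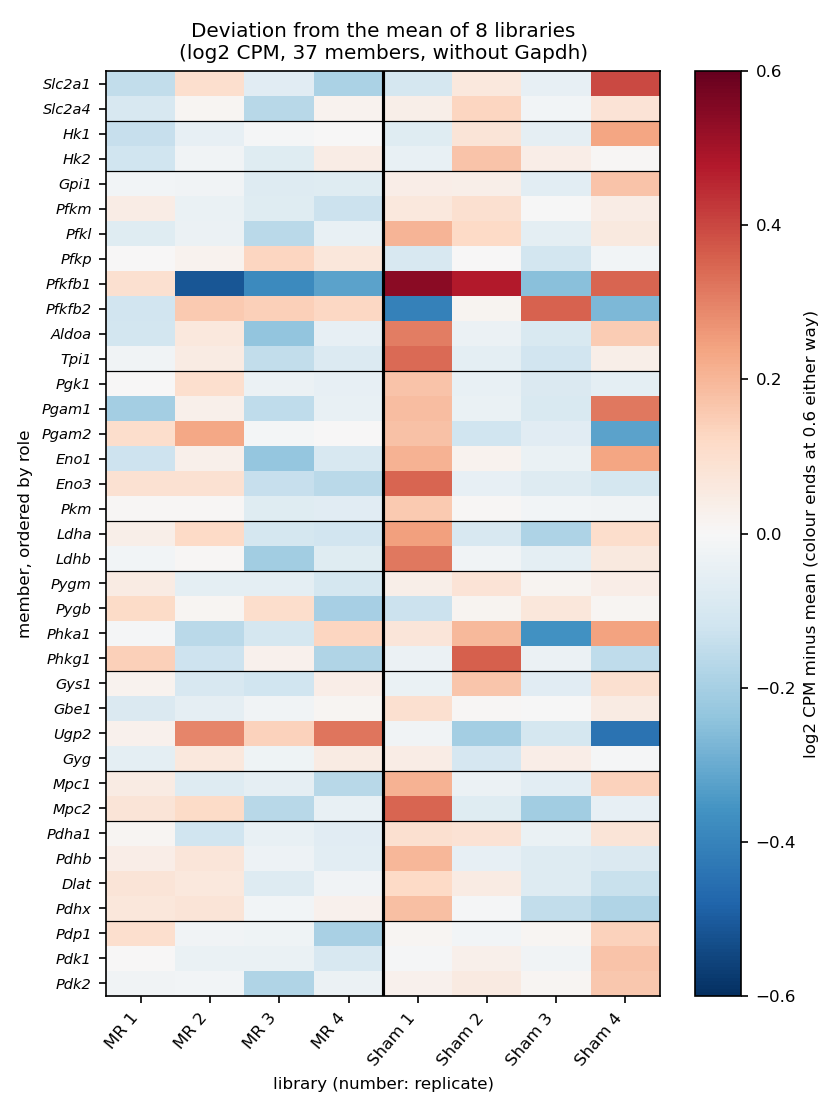
Deviation of each member (rows, ordered by role) from its mean over the 8 libraries (columns, MR left of Sham) in log2 CPM, with Gapdh left out because its range exceeds the colour scale. Sham replicate 1 is high across Aldoa, Tpi1, Eno3, Ldhb and Mpc2, and Ugp2 is the single row with all MR columns above all Sham columns.

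Heart tissue was checked by marker genes. The summed level of 8 cardiomyocyte markers was 47080 to 53449 CPM in MR libraries and 51077 to 59368 CPM in Sham libraries, with 0 of 8 called in either direction in edgeR. At an unadjusted p under 0.05, 5 of the 8 (62.5%, against 15.1% of all genes) had negative log2 fold changes, the median of the 8 was −0.23, and Myh6 and Myl2, a myosin heavy and a light chain gene, had all MR values below all Sham values (25.0% of the 8, against 8.09% of all genes). Negative estimates were found for 6 of these 8 markers and 28 of the 38 members of the set. The 7 fibroblast markers summed to 1004 to 1135 CPM in MR and to 882 to 941 CPM in Sham. In edgeR 1 of the 7 was called higher, against 0.241% of all genes. It was Col1a1, which encodes a collagen I chain, with an edgeR adjusted p of 0.0483. Estimates were positive for 5 and negative for 2, with 4 positive at an unadjusted p under 0.05 (57.1%, against 15.1% of all genes). Col1a1 and Col3a1 had all MR values above all Sham values (28.6% of the 7, against 8.09% of all genes). The 9 skeletal muscle markers summed to 1741 to 1877 CPM in MR and to 1106 to 1380 CPM in Sham, with 0 of 5 tested called in edgeR. Acta1 and Ckm, which heart also expresses, made up most of the sums. Acta1 averaged 714 CPM in MR and 205 CPM in Sham (log2 fold change 1.80, edgeR adjusted p = 0.0842), and Ckm 1096 and 1031 CPM. All 5 tested had positive estimates, 2 of them at an unadjusted p under 0.05 (40%, against 15.1% of all genes). Acta1 and Ckm had all MR values above all Sham values (40% of the 5, against 8.09% of all genes). Of the fast skeletal genes, Tnnt3 averaged 0.548 CPM in MR and 0.253 CPM in Sham, Tnni2 1.12 CPM in MR and 0.727 CPM in Sham and Mylpf 0.726 CPM in MR and 0.622 CPM in Sham. Tnnc2 was at 0 in all libraries, and Myh4, Myh1 and Actn3 averaged at most 0.137 CPM in either group. The 6 markers of neutrophils, cells that live largely by glycolysis, summed to 2.96 to 5.72 CPM in MR and to 8.11 to 67.0 CPM in Sham. In edgeR 0 of the 6 were called. All 6 had negative log2 fold changes, 5 of them at an unadjusted p under 0.05 (83.3%, against 15.1% of all genes). Their median was −3.80, and 4 had all MR values below all Sham values (66.7%, against 8.09% of all genes). The sums were 37.0, 11.9, 8.11 and 67.0 CPM in Sham replicates 1 to 4. Replicates 1 and 4 also held the highest value of 16 and 9 members. The part of these cell types in the values of the members was not tested.

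Ugp2 makes UDP-glucose, the sugar donor for glycogen, and stood furthest from Sham of the members by its p-value. It lies on chromosome 11 from 21321138 to 21371201 on the minus strand of GRCm38, the assembly of the mm10 build named in the submitters' processing notes. Its values were 467, 563, 505 and 574 CPM in MR hearts, against 452, 399, 427 and 338 CPM in Sham hearts. Every MR library lay above every Sham library, the nearest being MR replicate 1 and Sham replicate 1. The means were 527 ± 50.3 CPM in MR and 404 ± 48.9 CPM in Sham (SD, n = 4 each), a log2 fold change of 0.38 with a standard error of 0.10 and a 95% interval of 0.18 to 0.59, and the edgeR adjusted p was 0.0859. Ugp2 did pass with DESeq2 (adjusted p = 0.00928), with limma-voom (0.0343), with the length trend removed (0.0407), with no filter on low counts (0.000421) and in edgeR with Sham replicate 3 left out (0.0385). With each other library left out its edgeR adjusted p was 0.0534 to 0.257 and its log2 fold change 0.31 to 0.44. Over the settings other than single left-out libraries its log2 fold change stayed between 0.38 and 0.43.

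Among the 38 members, Ugp2 was the only one with all MR values above all Sham values, and Pdk2 the only one with all below, against 4.19% of all genes above and 3.91% below, or 8.09% in all. The other glycogen synthesis genes were close between groups. Gys1, the muscle glycogen synthase, had 96.5, 88.9, 87.3 and 97.6 CPM in MR hearts, against 92.6, 107, 90.8 and 102 CPM in Sham hearts. Its log2 fold change was −0.08 with an interval of −0.24 to 0.08 (edgeR adjusted p = 0.656), and the groups overlapped. Gbe1, which adds the branches, averaged 67.6 ± 1.98 CPM in MR and 71.2 ± 2.29 CPM in Sham, and Gyg, the glycogenin primer, 160.1 ± 6.52 CPM in MR and 159 ± 7.29 CPM in Sham (SD, n = 4 each).

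Pfkfb1 encodes a 6-phosphofructo-2-kinase/fructose-2,6-bisphosphatase best known from liver and skeletal muscle, and was the member with the most negative estimate. It lies on chromosome X from 150588229 to 150643878 on the plus strand. Its values were 13.4, 8.73, 9.58 and 9.98 CPM in MR hearts, against 18.2, 17.4, 10.5 and 15.96 CPM in Sham hearts. MR replicates 2 to 4 lay below all Sham libraries, while MR replicate 1 lay above Sham replicate 3, so that the groups overlapped. The log2 fold change was −0.57 with a standard error of 0.17 and an interval of −0.96 to −0.19 (edgeR adjusted p = 0.147). It passed with DESeq2 (adjusted p = 0.0264), with no filter on low counts (7.6e-06) and with Sham replicate 3 left out (0.00614), and with each other library left out its edgeR adjusted p was 0.111 to 0.333. Pfkfb2, the heart form of the same enzyme, had 61.4, 74.2, 73.5 and 72.5 CPM in MR hearts, against 50.2, 67.3, 85.1 and 55.2 CPM in Sham hearts. The MR range lay inside the Sham range, with a log2 fold change of 0.13 (edgeR adjusted p = 0.728).

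The 250 bases before the annotated start are shown for Ugp2, Pfkfb1 and Pdk2, because these members had the lowest p-values or no overlap between groups. They come from RefSeq on GRCm38.p6, on the strand of the gene, with the core of the hypoxia response element (ACGTG), the E-box CACGTG, which holds that core on both strands in overlap, and the GC box (GGGCGG) in capitals on either strand. For each gene the RefSeq start nearest to the gene start in GENCODE is shown. These are chr11:21371268-21371517 for Ugp2, 1 of 2 starts, chrX:150587993-150588242 for Pfkfb1, 1 of 4, and chr11:95041372-95041621 for Pdk2, 1 of 2.
Ugp2: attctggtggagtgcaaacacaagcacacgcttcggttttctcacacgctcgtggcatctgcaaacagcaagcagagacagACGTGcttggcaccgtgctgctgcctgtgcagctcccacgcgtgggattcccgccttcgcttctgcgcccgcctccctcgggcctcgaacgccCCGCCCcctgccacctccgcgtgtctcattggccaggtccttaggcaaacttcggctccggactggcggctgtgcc
Pfkfb1: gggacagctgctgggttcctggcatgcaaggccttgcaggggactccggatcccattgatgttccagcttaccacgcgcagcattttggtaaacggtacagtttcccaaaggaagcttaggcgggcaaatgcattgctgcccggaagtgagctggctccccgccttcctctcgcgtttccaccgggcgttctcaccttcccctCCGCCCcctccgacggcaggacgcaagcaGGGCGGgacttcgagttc
Pdk2: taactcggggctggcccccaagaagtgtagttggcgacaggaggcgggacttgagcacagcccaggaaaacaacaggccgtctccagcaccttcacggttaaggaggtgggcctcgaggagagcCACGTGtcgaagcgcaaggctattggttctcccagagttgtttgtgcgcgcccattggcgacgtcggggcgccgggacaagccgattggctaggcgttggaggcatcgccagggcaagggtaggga
The Ugp2 window held 1 ACGTG and 1 GC box, the Pfkfb1 window 2 GC boxes and the Pdk2 window 1 E-box. At the starts not shown, the Ugp2 window held 2 GC boxes and no ACGTG, and those of Pfkfb1 and Pdk2 held no match. Over all starts, 14 of the 36 members found in RefSeq (38.9%) held ACGTG in such a window, where 18.5% of 27025 genes did. The E-box was held by 4 members (11.1%, against 6.86% of genes) and the GC box by 22 (61.1%, against 35.4%). A gene was counted if any of its starts held the match, so that genes with more starts had more windows. The 27025 genes include genes not tested here. These matches describe the letters alone.

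**Figure D3:**
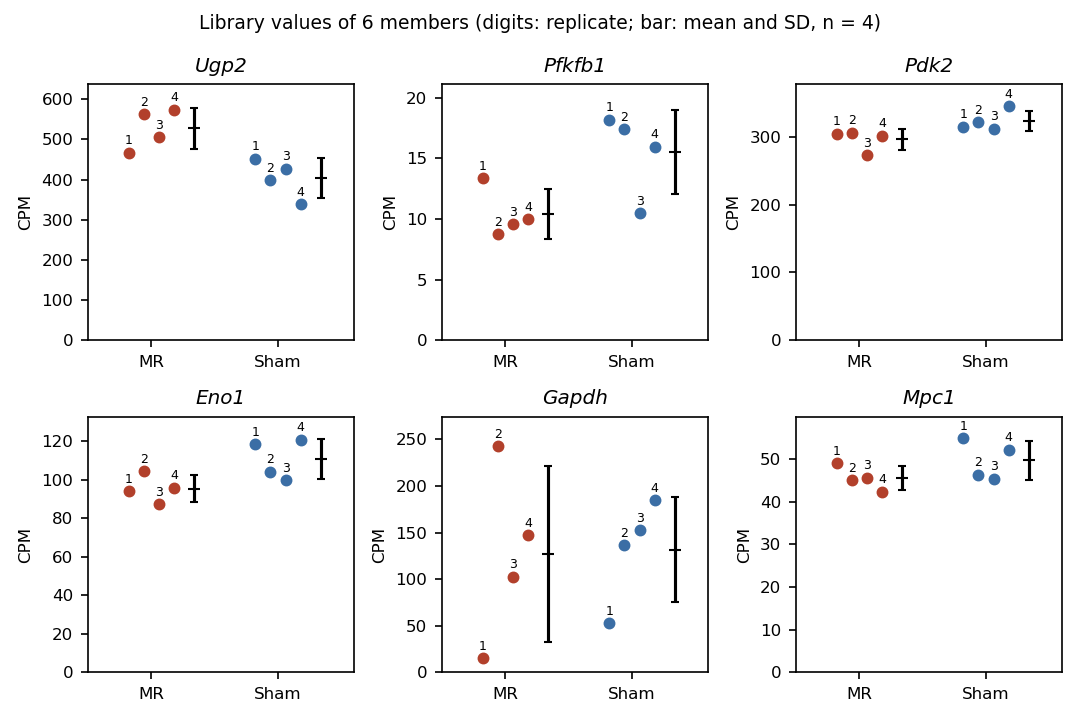
CPM (y axes, from 0) in each MR and Sham library of Ugp2, Pfkfb1, Pdk2, Eno1, Gapdh and Mpc1, with the replicate number above each point and the mean and SD beside each group (n = 4). Ugp2 has every MR point above every Sham point and Pdk2 every MR point below, while Gapdh spreads from 15.03 to 243 CPM in MR alone.

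The glucose carriers and hexokinases were bounded closely. Slc2a4 had 327, 352, 311 and 354 CPM in MR hearts, against 358, 381, 346 and 369.8 CPM in Sham hearts, with MR replicates 1 and 3 below the Sham range and the other two within it. Its log2 fold change was −0.11 with an interval of −0.27 to 0.04 (edgeR adjusted p = 0.488). Slc2a1 had 12.6, 14.98, 13.3 and 12.2 CPM in MR hearts, against 13.0, 14.6, 13.5 and 18.4 CPM in Sham hearts, and only Sham replicate 4 stood above the MR range. Hk2, the insulin-responsive hexokinase of muscle, had 329.9, 353, 341 and 369 CPM in MR hearts, against 347, 404, 368 and 361 CPM in Sham hearts. Hk1, the widely expressed form, had 145, 154, 159 and 159 CPM in MR hearts, against 152, 168, 154 and 188 CPM in Sham hearts. Their log2 fold changes were −0.09 for Hk2 and −0.10 for Hk1, and the groups overlapped for both.

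In upper glycolysis the muscle phosphofructokinase gene Pfkm had 879, 830.0, 810.5 and 779 CPM in MR hearts, against 889, 912, 851 and 878 CPM in Sham hearts, with MR replicate 1 inside the Sham range and the others below it. Its log2 fold change was −0.10 (interval −0.25 to 0.05, edgeR adjusted p = 0.551). The liver form Pfkl had 85.4, 87.4, 80.1 and 86.9 CPM in MR hearts, against 103, 97.3, 86.0 and 93.3 CPM in Sham hearts. MR replicates 2 and 4 lay just above Sham replicate 3, and the log2 fold change was −0.16 (edgeR adjusted p = 0.298). The platelet form Pfkp ran the other way, with 68.3, 69.1, 74.5 and 71.6 CPM in MR hearts, against 63.8, 68.3, 63.1 and 67.3 CPM in Sham hearts, and the groups overlapped only at 1 pair of libraries. Its log2 fold change was 0.11 (edgeR adjusted p = 0.431), and 5.58% of its exons overlap those of Pitrm1 on the opposite strand, whose reads cannot be told apart where strand is not used. Aldoa had 1289, 1452, 1181 and 1345 CPM in MR hearts, against 1723, 1358, 1306 and 1548 CPM in Sham hearts, with a log2 fold change of −0.17 (edgeR adjusted p = 0.433). Sham replicates 1 and 4 stood above all MR libraries.

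The pyruvate kinase and enolase genes overlapped between groups. Pkm, the muscle pyruvate kinase, had 833, 833, 788 and 791 CPM in MR hearts, against 925, 833, 819 and 816 CPM in Sham hearts, where Sham replicate 1 alone stood above the rest. Its log2 fold change was −0.06 (interval −0.22 to 0.09, edgeR adjusted p = 0.725). Eno3, the muscle enolase, had 1005, 1006, 857 and 843 CPM in MR hearts, against 1204, 912, 896 and 879 CPM in Sham hearts, again with Sham replicate 1 alone above the MR range. Eno1, the widely expressed enolase, had 94.2, 105, 87.3 and 96.0 CPM in MR hearts, against 119, 104, 99.8 and 121 CPM in Sham hearts. MR replicate 2 lay within the Sham range and the other MR libraries below it, and the log2 fold change was −0.21 (interval −0.39 to −0.04, edgeR adjusted p = 0.225). Of the 50-base stretches of Eno1, 72.2% recur in other genes, above all in Eno1b, so its count is uncertain.

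Pgam2 and Pgam1 are the muscle and the brain forms of phosphoglycerate mutase. Pgam2 had 367, 399.9, 338 and 341 CPM in MR hearts, against 385, 313, 325 and 273 CPM in Sham hearts, a log2 fold change of 0.16 (edgeR adjusted p = 0.483). Pgam1 had 29.5, 34.8, 30.6 and 33.0 CPM in MR hearts, against 38.7, 33.2, 32.0 and 42.4 CPM in Sham hearts, a log2 fold change of −0.19 (edgeR adjusted p = 0.350). Both genes overlapped between groups, and 41.5% of the 50-base stretches of Pgam1 recur in other genes. The lactate dehydrogenase gene Ldhb, the heart form, had 1194, 1216, 1045 and 1149.6 CPM in MR hearts, against 1503, 1191, 1159 and 1256 CPM in Sham hearts. Ldha, the skeletal muscle form, had 526, 558, 478 and 475 CPM in MR hearts, against 609, 482, 453 and 553 CPM in Sham hearts. Both overlapped between groups, with log2 fold changes of −0.15 for Ldhb (edgeR adjusted p = 0.469) and −0.04 for Ldha (edgeR adjusted p = 0.888).

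Gapdh, the glyceraldehyde phosphate dehydrogenase often used to scale other genes, was the least steady member. Its values were 15.03, 243, 103 and 147 CPM in MR hearts, against 52.5, 136, 153 and 185 CPM in Sham hearts. MR replicates 1 and 2 were the lowest and the highest of all libraries, and the Sham libraries lay between them. The coefficient of variation was 74.6% in MR and 42.8% in Sham, while the other 37 members did not exceed 19.5% in MR and 24.1% in Sham. The log2 fold change was −0.05 with an interval of −1.99 to 1.89, which bounds the difference only loosely, and it ran from −0.57 to 0.32 as single libraries were left out. With limma-voom and quality weights, which weigh libraries unequally, it was −1.05 (adjusted p = 0.656). Of the 50-base stretches of the transcript, 82.5% recur in other genes, and the 97 near copies listed in the table held 31496 counts, against 48247 for Gapdh itself. Per kilobase of exon Gapdh averaged 30.7 CPM in MR and 31.8 CPM in Sham, while its neighbours in the pathway, Tpi1 and Pgk1, averaged 199.5 and 165 CPM in MR and 215 and 165 CPM in Sham. These levels depend on the joined length of all annotated exons, 4133 bases for Gapdh, 2753 for Tpi1 and 2244 for Pgk1. The 1 transcript used for each gene held 1371, 1558 and 1776 different 50-base stretches, so the joined length lowers Gapdh most. Of the 50-base stretches of Pgk1, 68.0% recur in other genes, so its level is uncertain too, although its 3 near copies held 951 counts, against 137940 for Pgk1.

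The glycogen breakdown genes overlapped between groups. Pygm, the muscle glycogen phosphorylase, had 999, 926, 927 and 897 CPM in MR hearts, against 989.9, 1020.4, 978 and 992 CPM in Sham hearts. MR replicates 2 to 4 lay below the Sham range and MR replicate 1 within it, with a log2 fold change of −0.09 (interval −0.23 to 0.06, edgeR adjusted p = 0.602). Pygb, the brain form, had 847, 789.7, 842 and 682 CPM in MR hearts, against 716, 792, 820.0 and 788 CPM in Sham hearts, with MR on both sides of the Sham range. The phosphorylase kinase subunits Phka1 and Phkg1 averaged 60.6 ± 5.39 and 23.3 ± 2.38 CPM in MR and 64.4 ± 11.4 and 24.5 ± 4.07 CPM in Sham (SD, n = 4 each).

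For pyruvate import the count of Mpc1 is uncertain because of a near copy that outweighs it. Mpc1 on chromosome 17 (8282904 to 8297661) had 49.0, 45.0, 45.6 and 42.3 CPM in MR hearts, against 54.8, 46.3, 45.3 and 52.2 CPM in Sham hearts. Mpc1-ps on chromosome 12 (110858565 to 110858894, minus strand), which is no member, had 103, 109, 112 and 96.4 CPM in MR hearts, against 135, 109.6, 106 and 125 CPM in Sham hearts, and took 70.1% of the counts of the pair. Over 327 aligned coding bases they differ at 1, in capitals in the first 60 coding bases below, read from GRCm38.
Mpc1: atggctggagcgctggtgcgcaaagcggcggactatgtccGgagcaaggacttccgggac
Mpc1-ps: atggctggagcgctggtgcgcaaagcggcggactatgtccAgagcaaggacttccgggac
Reads that do not span this base cannot be assigned by the coding sequence, and the sources used here do not say how the authors' counting treated them. The log2 fold change was −0.13 for Mpc1 (edgeR adjusted p = 0.466), −0.18 for Mpc1-ps (edgeR adjusted p = 0.348) and −0.16 for both summed (edgeR adjusted p = 0.376). For Mpc1 and for Mpc1-ps the groups overlapped. Of the exons of Mpc1, 23.1% also overlap 4930506C21Rik on the opposite strand. Mpc2, the partner subunit, had 288, 296, 244 and 264 CPM in MR hearts, against 349, 259.7, 236 and 264 CPM in Sham hearts, with a log2 fold change of −0.02 (edgeR adjusted p = 0.956).

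The subunits of the pyruvate dehydrogenase complex did not pass the test and overlapped between groups. Pdha1, which encodes the regulated E1 alpha subunit, had 883, 806, 849 and 834 CPM in MR hearts, against 936, 929.9, 851 and 923 CPM in Sham hearts. MR replicate 1 lay inside the Sham range and the others below it, with a log2 fold change of −0.11 (interval −0.26 to 0.04, edgeR adjusted p = 0.492). Of its exons 16.15% overlap Map3k15 on the opposite strand, which held 682 counts over all libraries, against 326386 for Pdha1. Dlat, the E2 core, had 480.5, 476, 432 and 449 CPM in MR hearts, against 494, 472, 431 and 416 CPM in Sham hearts, so that MR lay wholly inside the Sham range. Pdhb, the E1 beta subunit, averaged 681 ± 29.4 CPM in MR and 679 ± 66.8 CPM in Sham, and Pdhx, which binds the E3 enzyme, 169 ± 4.96 CPM in MR and 160.5 ± 18.8 CPM in Sham (SD, n = 4 each).

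Of the kinases that inhibit the complex, Pdk2 lies on chromosome 11 from 95026258 to 95041354 on the minus strand. It had 305, 306, 273 and 302 CPM in MR hearts, against 315, 322, 312 and 346 CPM in Sham hearts. Every MR library lay below every Sham library, by a narrow gap. The means were 297 ± 15.6 CPM in MR and 324 ± 15.3 CPM in Sham (SD, n = 4 each), the log2 fold change was −0.13 with an interval of −0.28 to 0.02, and the edgeR adjusted p was 0.425. Pdk1 had 238, 231, 232 and 223 CPM in MR hearts, against 237, 243, 235 and 268 CPM in Sham hearts, with a log2 fold change of −0.09 (edgeR adjusted p = 0.592), and MR replicate 1 lay inside the Sham range. The phosphatase Pdp1 averaged 47.3 ± 3.97 CPM in MR and 49.6 ± 2.40 CPM in Sham (SD, n = 4 each).

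Per kilobase of exon, the same form of each pair was the higher in both groups, in most pairs the one named for muscle or heart. Slc2a4 averaged 96.6 CPM per kb in MR and 105 in Sham, where Slc2a1 averaged 3.79 in MR and 4.24 in Sham. Pfkm, at 247 in MR and 264 in Sham, stood over Pfkl at 12.7 and 14.2 and over Pfkp at 5.29 and 4.90 CPM per kb in MR and Sham. Eno3 averaged 534 CPM per kb in MR and 559 in Sham, where Eno1 averaged 17.8 in MR and 20.6 in Sham, and Pgam2 averaged 430.5 in MR and 386 in Sham, where Pgam1 averaged 16.1 in MR and 18.5 in Sham. Pfkfb2 stood over Pfkfb1 by 3.74 times in MR and 2.30 times in Sham. Other closer pairs were Hk2 over Hk1 by 3.23 times in MR and 3.20 times in Sham, Ldhb over Ldha by 4.77 times in MR and 5.14 times in Sham, Pdk2 over Pdk1 by 3.16 times in MR and 3.24 times in Sham, and Pygm over Pygb by 1.77 times in MR and 1.91 times in Sham. Exon lengths join all annotated exons of a gene, which lowers the level of genes with many of them. The folds between forms depend on these lengths, which were 8532 bases for Hk1 and 5969 bases for Hk2.

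**Figure D4:**
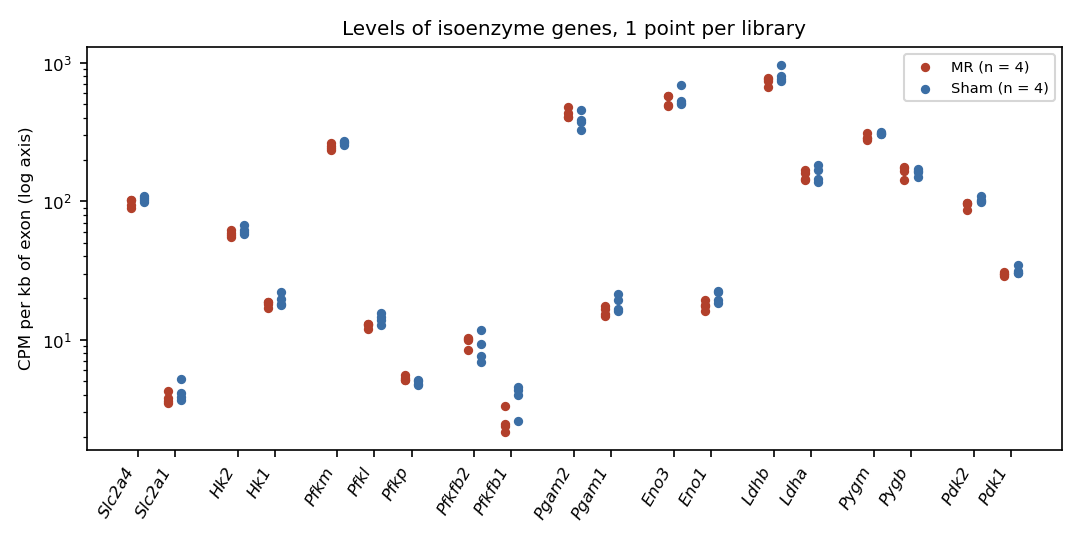
Level per kilobase of exon (y axis, CPM per kb, log axis) of the isoenzyme members (x axis, the more abundant form left of the others), with 1 point per library and MR left of Sham (n = 4 each). The order of the forms is the same in both groups, with Slc2a4, Pfkm, Pgam2 and Eno3 over 10-fold above Slc2a1, Pfkl, Pgam1 and Eno1.

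A ratio of 2 members within a library does not depend on scaling between libraries. Among 10 such pairs, 0 passed an adjusted p of 0.05 in an exact two-sided permutation test of the log2 ratios, which over 70 arrangements cannot give a p under 0.0286. After adjustment over 10 pairs a call would need at least 6 pairs at that smallest p, so that the count says little. There were 2 pairs without overlap between groups, where 8.09% of all genes taken singly had none. The share over other pairs of genes was not computed. Both pairs hold a member with an uncertain count. Of the 50-base stretches of Pgam1, 41.5% recur in other genes, and 5.58% of the exons of Pfkp overlap Pitrm1 (21151 counts, against 25521 for Pfkp). Pfkp to Pfkm was 0.0778, 0.0834, 0.0920 and 0.0920 in MR hearts, against 0.0718, 0.0750, 0.0743 and 0.0768 in Sham hearts. All MR values lay above all Sham values, with a log2 difference of 0.21 (exact permutation p = 0.0286, adjusted p = 0.143 over 10 pairs). Pgam1 to Pgam2 was 0.0808, 0.0872, 0.0908 and 0.0970 in MR hearts, against 0.101, 0.106, 0.0986 and 0.156 in Sham hearts. All MR values lay below all Sham values, with a log2 difference of −0.35 (exact permutation p = 0.0286, adjusted p = 0.143). Ldha to Ldhb was 0.441, 0.459, 0.458 and 0.413 in MR hearts, against 0.405, 0.405, 0.390 and 0.440 in Sham hearts, where MR replicate 4 and Sham replicate 4 overlapped (log2 difference 0.11, exact permutation p = 0.0571, adjusted p = 0.190). The log2 difference was −0.71 for Pfkfb1 to Pfkfb2 (adjusted p = 0.286 in the exact permutation test), with both groups wide, and between −0.15 and 0.10 for the other 6 pairs.

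**Figure D5:**
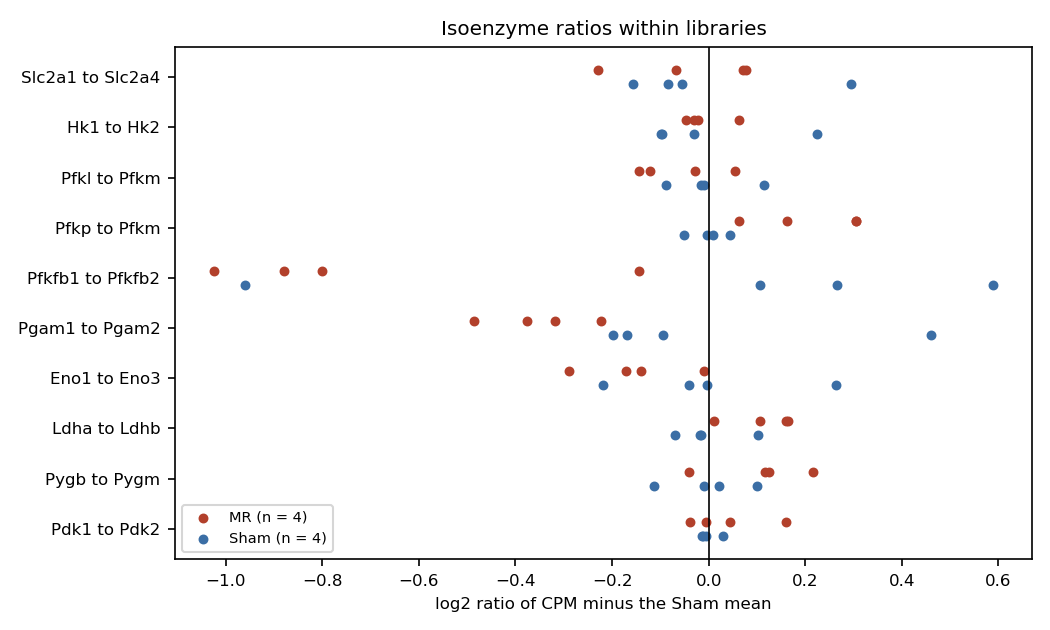
Log2 ratio of CPM within each library minus the Sham mean (x axis) for the 10 isoenzyme pairs (y axis), 1 point per library with MR above Sham (n = 4 each). The pairs Pfkp to Pfkm and Pgam1 to Pgam2 have no overlap between MR and Sham points, at log2 differences of 0.21 and −0.35.

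Other genes of glucose use were read from 6 lists with 92 symbols, of which 86 were tested, with 0 higher and 1 lower in edgeR, where 0.458% of all genes were called and 0.217% lower. Their median log2 fold change was −0.07, with 31 positive and 55 negative values, where 49.6% of all genes were negative. At an unadjusted p under 0.05 there were 16 (18.6%, against 15.1% of all genes). Of these, 3 were higher and 13 lower, where 7.78% of all genes were higher and 7.29% lower. None of the 9 other glucose and lactate carriers, 12 other glycolysis genes, 18 other glycogen genes, 9 other pyruvate genes or 15 genes of the pentose phosphate, polyol and hexosamine routes passed. The gene that fell was Klf15, a Kruppel-like factor that acts on muscle Slc2a4 and glucose use, 1 of 23 listed regulators. Klf15 had 35.4, 37.6, 37.0 and 38.5 CPM in MR hearts, against 44.6, 59.5, 51.1 and 53.2 CPM in Sham hearts. No MR library reached the lowest Sham library, the log2 fold change was −0.49 with a standard error of 0.08, and the edgeR adjusted p was 0.0261. The call was lost without MR replicate 1, 2 or 3 or Sham replicate 2 or 4, with adjusted p-values of 0.0734 to 0.0921.

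Other listed genes did not pass. Of the 86 related genes tested, 5 (5.81%), Klf15 among them, had all MR values below all Sham values, against 3.91% of all genes. In the other direction there were 0, against 4.19%, and 8.09% of all genes had no overlap in either direction. Sord, the sorbitol dehydrogenase of the polyol route, had 174, 169.6, 165 and 165 CPM in MR hearts, against 225, 199.8, 195 and 228 CPM in Sham hearts, with no overlap (log2 fold change −0.33, edgeR adjusted p = 0.0650). Txnip, an arrestin that lowers glucose uptake, had 321, 259.8, 249 and 248 CPM in MR hearts, against 348, 366, 423 and 874 CPM in Sham hearts. All MR values lay below Sham, but Sham replicate 4 stood far from its group, and the log2 fold change of −0.90 had an edgeR adjusted p of 0.249. Pdk4, the kinase of the complex that fasting and fatty acids induce, had 555, 298, 126 and 604 CPM in MR hearts, against 416, 279.5, 293 and 244 CPM in Sham hearts. MR libraries lay on both sides of the Sham range, and the log2 fold change of 0.36 had a standard error of 0.50 (edgeR adjusted p = 0.788). Hif1a, the hypoxia-stabilised activator of glycolysis genes, had a log2 fold change of 0.10 (edgeR adjusted p = 0.490), and Ppargc1a, a coactivator of oxidative metabolism, −0.24 (edgeR adjusted p = 0.202).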

How the data were processed

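The deposited values are raw read counts for each Ensembl gene, as the authors made them, with no normalization. The submitters' processing notes name HISAT2 2.0.5 and mm10, and the sources used here do not name the counting tool, annotation or use of strand. Libraries were made from total RNA of frozen heart powder with an mRNA kit, per the labels' protocols. Total counts were 42291511 to 58658094 per library.

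Symbols and exon lengths came from GENCODE release M21 (GRCm38), which matched 32350 identifiers and left 755 without a symbol. Genes were filtered with filterByExpr (minimum count 10, minimum total 15) and tested with the edgeR 4.0.16 quasi-likelihood F test in R 4.3.3, with TMM factors of 0.967 to 1.019, robust moderation and Benjamini-Hochberg adjustment over 16603 genes at 0.05, and 16502 genes were untested. DESeq2 1.42.0 and voom of limma 3.58.1 were alternatives. Isoenzyme ratios used log2 of CPM + 0.1. A near copy shares at least 5% of a member's 50-base stretches. The code was tested on simulated data. Values per library are given for the 10 members with the lowest p, both members of each isoenzyme pair and Gapdh, Pkm, Gys1, Pygm, Pdha1, Dlat, Mpc1 and Mpc2, and related genes are named by the lowest p of a list or as fixed names; 1 such gene is not reported here. The members and lists were chosen with earlier results of these data known.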

Additional observations from a re-analysis of the deposited data

Results flagged for a closer look

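Of 98 groups of 4 libraries examined over members and ratios, 9 had 1 library far from the other 3, where chance gives about 1 in 20. Sham replicate 1 stood highest in 4 of them. Pgk1, phosphoglycerate kinase, had 416 CPM there against 347 to 359 CPM in the other Sham libraries, and Eno3 had 1204 CPM against 879 to 912 CPM. Pkm had 925 CPM there against 816 to 833 CPM, and Pdhb had 779 CPM against 639 to 655 CPM. In Sham replicate 3, Pdha1 was lowest with 851 CPM, against 923 to 936 CPM in the rest of its group. In Sham replicate 4 the ratio of Pgam1 to Pgam2 was highest with 0.156, against 0.0986 to 0.106, and that of Pdk1 to Pdk2 with 0.774, against 0.751 to 0.755. Among MR libraries, Pfkfb2 was lowest in replicate 1 with 61.4 CPM, against 72.5 to 74.2 CPM, and Pdk2 in replicate 3 with 273 CPM, against 302 to 306 CPM.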

How the results depend on the processing

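Of the members, 28 kept the sign of their log2 fold change under every setting and 10 did not, all with estimates between −0.08 and 0.02. Numbers of all genes higher and lower were 40 and 36, with no filter 517 and 419, with DESeq2 309 and 308, with limma-voom 227 and 202, and with the length trend removed 115 and 112; library totals gave 17 lower and a minimum of 1 CPM in 4 libraries 20 lower. With single libraries left out they were 1 to 497 higher and 2 to 390 lower. Members called higher were 1 with no filter, DESeq2, limma-voom and the length trend removed, and called lower 1 with no filter and DESeq2; both were 0 to 1 with single libraries left out. In the main fit 86 related genes were tested. Those called higher were 1 with no filter and 0 to 2 with libraries left out. Called lower were 4 with no filter, 3 with DESeq2, 2 with limma-voom, 2 with the length trend removed and 0 to 3 with libraries left out. Of all genes, 3.06% were called with no filter, 3.77% with DESeq2, 2.58% with limma-voom and 1.37% with the length trend removed. The share was 5.28% without Sham replicate 3. The log2 fold change turned positive for Eno3 in limma-voom (0.011), Ldha with library totals (0.0039) and limma-voom (0.013), and Mpc2 with library totals (0.025) and limma-voom (0.052), and turned negative for Pdhb with RLE factors (−0.00039) and DESeq2 (−0.0019). With single libraries left out it ran from −0.57 to 0.32 for Gapdh, −0.026 to 0.062 for Pgk1, −0.11 to 0.045 for Eno3, −0.11 to 0.033 for Ldha, −0.025 to 0.085 for Pygb, −0.14 to 0.045 for Phkg1, −0.017 to 0.035 for Gyg, −0.092 to 0.10 for Mpc2, −0.025 to 0.069 for Pdhb and −0.020 to 0.057 for Dlat. The cause was not tested. Summing near copies, a choice made after seeing the data, left 40 and 36 genes. For the isoenzyme pairs, pseudocounts of 0.01 and 1 CPM also gave 0 calls, which shows no stability since at least 6 pairs at the smallest p would be needed, and 4 against 3 libraries cannot reach 0.05. No paired analysis was possible because the groups share no replicate numbers in the labels.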
